A study of Rattus norvegicus with 18 samples.

Results

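Transcription factors and regulators that mark the immature and the injury-induced repair state of Schwann cells were followed in cultures given vitamin C: Jun, Sox2, Olig1, Runx2, Pax3, the receptor Notch1 and the inhibitors Id1, Id2, Id3 and Id4. They were taken by gene symbol, with every hMeDIP peak assigned to them and the RNA count of the gene identifier that the peak list pairs with the symbol. Of the 10 genes, 7 have a symbol in the peak list (Jun, Runx2, Pax3, Notch1, Id1, Id2 and Id4), and Sox2, Olig1 and Id3 were not found there. The 7 genes hold 102 of the 215951 peaks. In RNA, 6 of them passed the filter on low counts and were tested, among 12925 of 32883 gene identifiers. Primary rat Schwann cells at passage 3 were given vitamin C or were left as controls, with 3 replicates of each. RNA depleted of ribosomal RNA, DNA precipitated with an antibody to 5-hydroxymethylcytosine (hMeDIP) and unprecipitated input DNA were sequenced from each, 18 libraries in all. The labels name neither sex, age and strain of the rats nor the dose and duration of the vitamin, and they do not say that replicates came from separate animals or cultures, so each p-value refers to the variation among the samples of this study, part of which may be technical.

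Schwann cells are the glia that ensheathe and myelinate peripheral axons. Immature Schwann cells, and cells that lose contact with axons after nerve injury, use Jun, Sox2, Notch signalling, Pax3 and Id proteins, which are known as negative regulators of myelination or as drivers of the repair programme, whereas Egr2 drives the myelin programme. Vitamin C (ascorbate) is a cofactor of TET enzymes, which oxidise 5-methylcytosine to 5-hydroxymethylcytosine, and of the hydroxylases that mature collagen. An hMeDIP read count measures how much DNA carrying 5-hydroxymethylcytosine was recovered from a region, and input measures the same region without the antibody.

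Libraries held 23381814 to 33173282 reads in genes (RNA), 24020306 to 39899445 reads in peaks (hMeDIP) and 7201638 to 9521037 reads in peaks (input). Levels are CPM, read counts scaled to a common total of reads in genes or in peaks, after edgeR's TMM scaling. Differences are given on the log2 scale, positive where vitamin C is higher, with their standard error (SE), and a call is a Benjamini-Hochberg adjusted p under 0.05 over the whole table in edgeR's quasi-likelihood test. RNA library 1 of the vitamin C group stood apart from libraries 2 and 3 of its group, with a chi-square per degree of freedom of 27.4 and 38.3 against 5.26 between libraries 2 and 3. In hMeDIP, libraries 1 and 3 of a group differed by less than the sampling noise allows (0.896 in the vitamin C group and 0.963 in controls), so they were counted as 1 sample (their mean) in mean ± SD values of peaks, which have n = 2. The hMeDIP test itself used 3 libraries against 3, and a fit of 2 against 2 with these libraries summed gave the same number of calls among the members, 76 higher and 8 lower, where 73.2% of all peaks were called (36.9% higher, 36.3% lower). The peak list runs through the genome in 2 passes that behave differently: of the first 67116 peaks 91.2% were called (88.2% lower with vitamin C and 3.02% higher), and of the 148835 later peaks 68.3% (15% lower and 53.3% higher). Each peak below is read against the pass it belongs to.

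Windows before the annotated starts of the genes whose promoter-class peaks changed are shown because 5-hydroxymethylcytosine sits mostly on cytosines followed by guanine, here in capitals. They are the 250 bases before each start in RefSeq's table for rat build GRCr8. The table holds 8 of the 10 genes (Runx2 with 2 starts, 78182 bases apart). No source used here names the build of the deposited peaks, so the windows are not placed on the peaks.
Id1, chr3:161671314-161671563, plus strand: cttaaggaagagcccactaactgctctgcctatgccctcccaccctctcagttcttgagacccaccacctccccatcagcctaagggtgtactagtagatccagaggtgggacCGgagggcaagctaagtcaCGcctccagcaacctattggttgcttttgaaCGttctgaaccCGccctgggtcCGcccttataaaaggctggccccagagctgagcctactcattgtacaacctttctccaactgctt
Id2, chr6:47470996-47471245, minus strand: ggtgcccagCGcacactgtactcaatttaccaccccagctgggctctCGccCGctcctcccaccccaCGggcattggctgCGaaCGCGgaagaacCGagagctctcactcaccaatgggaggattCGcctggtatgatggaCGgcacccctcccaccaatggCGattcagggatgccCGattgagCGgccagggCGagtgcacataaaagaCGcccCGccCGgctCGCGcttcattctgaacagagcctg
Id4, chr17:16598294-16598543, minus strand: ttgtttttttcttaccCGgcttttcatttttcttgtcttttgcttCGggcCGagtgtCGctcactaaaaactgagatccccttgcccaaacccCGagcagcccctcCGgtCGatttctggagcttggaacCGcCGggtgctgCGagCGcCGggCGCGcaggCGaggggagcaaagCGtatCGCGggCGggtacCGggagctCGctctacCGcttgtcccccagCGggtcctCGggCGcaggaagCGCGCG
Notch1, chr3:29721614-29721863, minus strand: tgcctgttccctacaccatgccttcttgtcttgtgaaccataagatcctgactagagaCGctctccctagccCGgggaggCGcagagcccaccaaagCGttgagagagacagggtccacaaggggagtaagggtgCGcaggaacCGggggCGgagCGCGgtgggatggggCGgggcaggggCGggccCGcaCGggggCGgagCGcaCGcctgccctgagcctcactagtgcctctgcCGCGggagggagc
Runx2 upstream start, chr9:23664808-23665057, plus strand: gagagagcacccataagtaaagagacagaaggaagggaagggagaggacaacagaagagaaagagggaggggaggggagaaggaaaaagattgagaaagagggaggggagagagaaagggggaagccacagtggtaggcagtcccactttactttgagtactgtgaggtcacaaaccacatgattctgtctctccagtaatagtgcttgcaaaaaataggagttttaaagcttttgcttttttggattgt
Runx2 downstream start, chr9:23742990-23743239, plus strand: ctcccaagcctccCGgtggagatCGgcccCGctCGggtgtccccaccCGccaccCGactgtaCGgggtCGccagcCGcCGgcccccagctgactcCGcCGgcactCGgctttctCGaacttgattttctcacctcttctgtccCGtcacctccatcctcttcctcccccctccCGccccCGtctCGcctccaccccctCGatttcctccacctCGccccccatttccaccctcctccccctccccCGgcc
The windows differ in density: Id1 has 5 CG, Id2 has 19 CG, Id4 has 28 CG, Notch1 has 18 CG, the upstream start of Runx2 has 0 CG and the downstream start of Runx2 has 21, against a median of 5 over all 33469 windows of the table. Searched on both strands over 300 bases (250 before to 50 after the start), the E-box CANNTG, the sequence that Id proteins keep E-proteins away from, occurred in the windows of Id1 (1 match), Id2 (1) and Runx2 (2 and 1) and not in those of Id4 and Notch1, while 72.1% of all windows hold it. TGGGAA, the core bound by the Notch effector Rbpj, and the AP-1 site TGANTCA had 0 matches in each of these windows, against 25.7% and 7.33% of all windows.

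In RNA the genes split: Jun and Runx2 rose, Id1 and Id2 fell, and Notch1 and Id4 did not pass the test. Of the 12925 genes tested, 40.1% were called (19.1% higher, 21% lower), so 4 calls among 6 genes are to be read against a high background. The 2 groups of libraries did not overlap for Jun, Runx2, Id1 and Id2, as for 54.7% of all tested genes. Without vitamin C library 1 the same 4 genes were called, and Id1 and Id2 were called under every RNA alternative that was run. In bulk cultures, fewer cells of a type and less RNA per cell cannot be told apart.

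**Figure D1:**
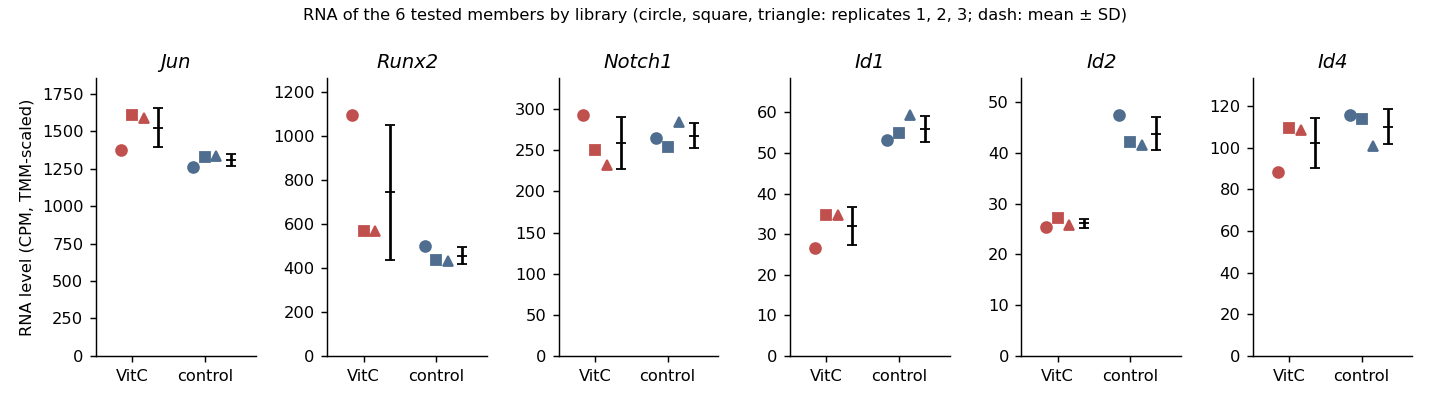
RNA level in CPM of each library for the 6 tested genes, vitamin C (VitC) left and control right, with the mean ± SD (n = 3) as a dash and bar. Id1 and Id2 lie lower in all 3 vitamin C libraries than in every control, and Runx2 is set apart by vitamin C library 1 at 1098 CPM.

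Id1 and Id2 encode helix-loop-helix proteins without a DNA-binding region that tie up E-proteins and so inhibit differentiation. Id1 (ENSRNOG00000021750, chr3:148215540-148216718) had 26.7, 34.7 and 34.8 CPM in the vitamin C libraries, against 53.2, 54.9 and 59.5 CPM in the controls. The highest treated library lies well under the lowest control, and the change was -0.80 ± 0.10 (SE; edgeR adjusted p = 5.13e-04), a level of 0.575 times the control. RefSeq lists LOC134486187 as a gene that overlaps Id1, and whether the Id1 counts hold reads of it was not tested. Id2 (ENSRNOG00000007237, chr6:44348501-44363915) had 25.5, 27.2 and 25.7 CPM with vitamin C and 47.6, 42.1 and 41.6 CPM in controls. The treated libraries lie close together, and the change was -0.75 ± 0.07 (edgeR adjusted p = 8.98e-05), a level of 0.596 times the control. Id4 (ENSRNOG00000016099, chr17:16692557-16695126), the family member best known from neural progenitors, had 88.6, 109.8 and 108.5 CPM with vitamin C and 116, 113.9 and 100.7 CPM in controls. Its groups overlap, and its change of -0.11 ± 0.09 did not pass (edgeR adjusted p = 0.390).

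Around the Id genes, BMP signalling, their best known inducer, and their E-protein partners were tested as lists. Of 13 tested genes of the BMP list 4 rose and 1 fell, with a median log2 change of 0.12 against -0.01 over all tested genes. The share called was 38.5%, near the 40.1% of all tested genes. The decoy receptor Bambi, itself a BMP target, fell to 18.7 ± 0.559 CPM with vitamin C, against 29.8 ± 0.798 CPM in controls (-0.67 ± 0.06, edgeR adjusted p = 7.77e-05). The signal transducer Smad1 rose by 0.39 ± 0.05, the procollagen-cleaving enzyme Bmp1, which is not a BMP ligand, by 0.49 ± 0.07, and the inhibitory Smad6 by 0.54 ± 0.10. Of 7 tested genes of the E-protein and partner list 2 rose and 1 fell (median 0.37), and without vitamin C library 1 the median was 0.16 with 3 up and 1 down. With all libraries 42.9% of this list were called, also near the share of all genes. The repressor Bhlhe41 fell by 0.54 ± 0.07 and its relative Bhlhe40 rose by 0.99 ± 0.18, on the log2 scale. Tcf4, an E-protein, rose by 0.85 ± 0.26 with all libraries and by 0.41 without vitamin C library 1, and the E-proteins Tcf3 (-0.16 ± 0.06) and Tcf12 (0.43 ± 0.17) did not pass.

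Jun encodes the AP-1 subunit that is central to the repair programme and opposes Egr2. Jun (ENSRNOG00000026293, chr5:114011189-114014277) had 1373, 1611 and 1589 CPM with vitamin C and 1261, 1327 and 1336 CPM in controls. The treated libraries are all higher, library 1 by little, and the change was small at 0.22 ± 0.07 (edgeR adjusted p = 0.0377). The call was lost when any library other than vitamin C library 1 was left out (adjusted p = 0.0675 to 0.129) and with scaling by library size alone (0.133). Of 16 tested AP-1 partners and kinases of the Jun pathway 9 rose and 2 fell, with a median log2 change of 0.31. The share called was 68.75%, beside 40.1% of all tested genes. The AP-1 subunit Fosl2 averaged 252 ± 14.1 CPM with vitamin C and 101 ± 4.05 CPM in controls (1.31 ± 0.06), and the small Maf factor Maff averaged 55.0 ± 0.816 and 19.2 ± 2.57 CPM in these groups (1.51 ± 0.09). The kinase Map2k7, which activates the Jun kinases, rose by 0.94 ± 0.07 and the AP-1 repressor Jdp2 by 0.62 ± 0.06. The 2 that fell are the AP-1 subunit Fos (-0.35 ± 0.09) and the stress-induced Atf3 (-0.17 ± 0.06), whose call was kept in 2 of the 6 fits that leave out a library.

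Runx2 encodes a runt-domain factor known as the master regulator of bone formation and known to be induced in Schwann cells after nerve injury. Runx2 (ENSRNOG00000020193, chr9:18564927-18773092) had 1098, 566 and 567 CPM with vitamin C and 500.0, 437 and 430.3 CPM in controls. All treated libraries are higher, but library 1 is far above libraries 2 and 3, and the change was 0.71 ± 0.23 (edgeR adjusted p = 0.0415). Without vitamin C library 1 it was 0.32 (edgeR adjusted p = 0.0013). The call was lost without control 1, 2 or 3 (adjusted p = 0.0802, 0.120 and 0.137) and with DESeq2 (0.0930).

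Vitamin C library 1 was high for genes with long transcripts, and Runx2 has the longest of the tested members, 208166 bases. Set against the mean of libraries 2 and 3, the median log2 difference of library 1 was -0.13 in 2057 genes under 10 kb and 0.54 in 536 genes of 200 kb or more (Spearman correlation with span 0.589 across 10021 genes of these libraries, with 0.5 CPM added; genes are not independent replicates). Runx2 stood at 0.95, above 88.8% of the genes of its span group. The treatment change of that group had a median of 0.46 with all libraries and 0.21 without vitamin C library 1, beside 0.71 and 0.32 for Runx2. Notch1, of 45573 bases, stood at 0.28, and the short genes Id1, Jun and Id4 at -0.37, -0.22 and -0.30. Of all counted RNA reads, 44.9% aligned at several places in this library, beside 34.4% and 32.7% in the other treated libraries and 42.5%, 36.5% and 41.2% in controls 1 to 3. The part of these differences in the changes of the long genes was not tested beyond leaving the library out. RefSeq lists Supt3h and LOC120094793 as genes that overlap Runx2, of which Supt3h was measured here. No source used here gives the strand setting of the counts, so reads of overlapping genes may be shared, which was not tested. Supt3h had 12.5, 11.1 and 10.1 CPM with vitamin C and 9.72, 10.6 and 10.2 CPM in controls, and did not pass (0.14 ± 0.10, edgeR adjusted p = 0.290).

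**Figure D2:**
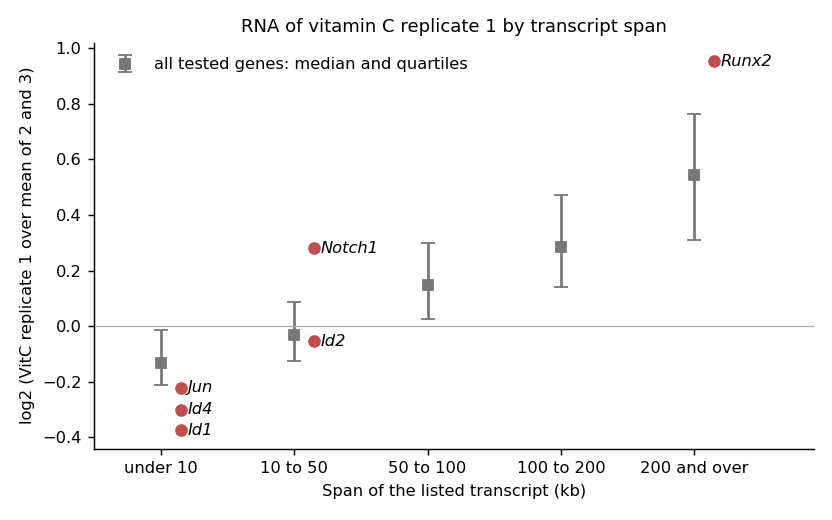
RNA log2 difference of vitamin C library 1 from the mean of vitamin C libraries 2 and 3 by span of the listed transcript in kb. The median and quartiles are of the 10021 genes compared by span, not of all 12925 tested, and the 6 members are points. The median runs from -0.13 under 10 kb to 0.54 at 200 kb and over, and Runx2 lies at 0.95.

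Of 10 genes linked to Runx2 in bone, 6 have a symbol in the files and 2 passed the filter, of which the phosphatase Alpl rose at a very low level (1.36 ± 0.224 CPM with vitamin C, 0.587 ± 0.290 CPM in controls). Osteoblast markers stood at 1.69 to 2.17 CPM summed with vitamin C and 1.02 to 1.80 CPM in controls.

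Notch1 encodes the receptor through which axonal and Schwann cell ligands keep cells proliferating and, after injury, speed the loss of myelin. Notch1 (ENSRNOG00000019322, chr3:3905453-3951025) had 293, 251 and 232 CPM with vitamin C and 264, 255 and 285 CPM in controls. The groups overlap fully, and the change of -0.05 ± 0.09 did not pass (edgeR adjusted p = 0.685). Of 24 tested identifiers of the Notch list 7 rose and 1 fell, with a median log2 change of 0.10. The share called was 33.3%, under the 40.1% of all tested genes. Without vitamin C library 1, 7 rose and 3 fell, and the median was -0.004. The ligand Jag1 averaged 29.6 ± 0.263 CPM with vitamin C and 20.3 ± 1.34 CPM in controls (0.55 ± 0.07, edgeR adjusted p = 4.19e-04). The target genes Heyl and Hes1, both transcriptional repressors, rose at low levels: Heyl had 10.7 ± 0.882 CPM with vitamin C and 1.43 ± 0.125 CPM in controls (2.92 ± 0.13), and Hes1 had 5.89 ± 0.938 and 2.64 ± 0.0718 CPM (1.16 ± 0.15). Numbl, an adaptor of the Numb family that dampens Notch, rose to 215 ± 9.94 CPM, against 105 ± 0.978 CPM in controls (1.03 ± 0.06). Hes6, which antagonises Hes1, is the 1 gene that fell (-0.28 ± 0.08, called in 3 of the 6 fits that leave out a library), and the mediator Rbpj did not pass under either of its 2 identifiers.

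Pax3 (ENSRNOG00000013670, chr9:84005183-84101172), a paired-box factor of neural crest and immature Schwann cells, was at the edge of detection in RNA, with 1, 4 and 5 reads in the vitamin C libraries and 3, 2 and 0 reads in controls, and was not tested.

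In hMeDIP, 76 of the 102 peaks were higher with vitamin C, 8 were lower and 18 were not called, with a median log2 change of 0.56. Over all 215951 peaks 75.4% were called, 37.7% higher and 37.7% lower, with a median of 0.04. The peaks fall mostly in the later pass of the list, where 74 of 93 were higher and 4 lower, beside 53.3% and 15% of all peaks of that pass. The median log2 change of these 93 was 0.58, beside 0.277 for all peaks of that pass. In the first pass 2 of 9 were higher and 4 lower, beside 3.02% and 88.2%, with a median of -0.06 beside -0.996. Scaled by all counted reads, peaks or not, 94 were higher and 2 lower, since this scaling moves the median of all peaks up by 0.43 and gives 85.4% called among them, 60.9% higher and 24.5% lower. The share of hMeDIP reads in peaks was 42.0 ± 1.63% with vitamin C and 32.8 ± 2.61% in controls (SD, n = 3 each), so the TMM values are changes relative to the typical peak. Input was called at 0 of 102 peaks by edgeR, with 9 at an unadjusted p under 0.05, and at 0 of 215759 peaks overall (0%; 10477 at an unadjusted p under 0.05). Input held 9 to 295 reads in each peak and library. Set against input in a joint fit, enrichment was higher at 58 and lower at 4 of the 102 peaks, beside 21.6% and 28.3% of all peaks (49.9% called).

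Runx2 carries 79 of the 102 peaks, more than are assigned to 99.5% of the 13701 coding genes in the list, from -1470 to 207291 bases from the listed start (negative before it). They are 367 to 5603 bases wide, and those of the gene body cover 57.0% of the transcript. Of the 79 peaks 62 were higher, 5 lower and 12 not called, with a median log2 change of 0.61, and 70 had groups that do not overlap, as 76.9% of all peaks. In the later pass of the list 60 of 74 were higher (81.1%) and 4 lower. These 74 peaks had a median log2 change of 0.65, beside 0.277 for all peaks of that pass. Of all gene body peaks of that pass 71% were called, 58% higher and 13% lower. The called increases run from 0.17 to 1.36 with a median of 0.74, and 12 exceed 1.

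**Figure D3:**
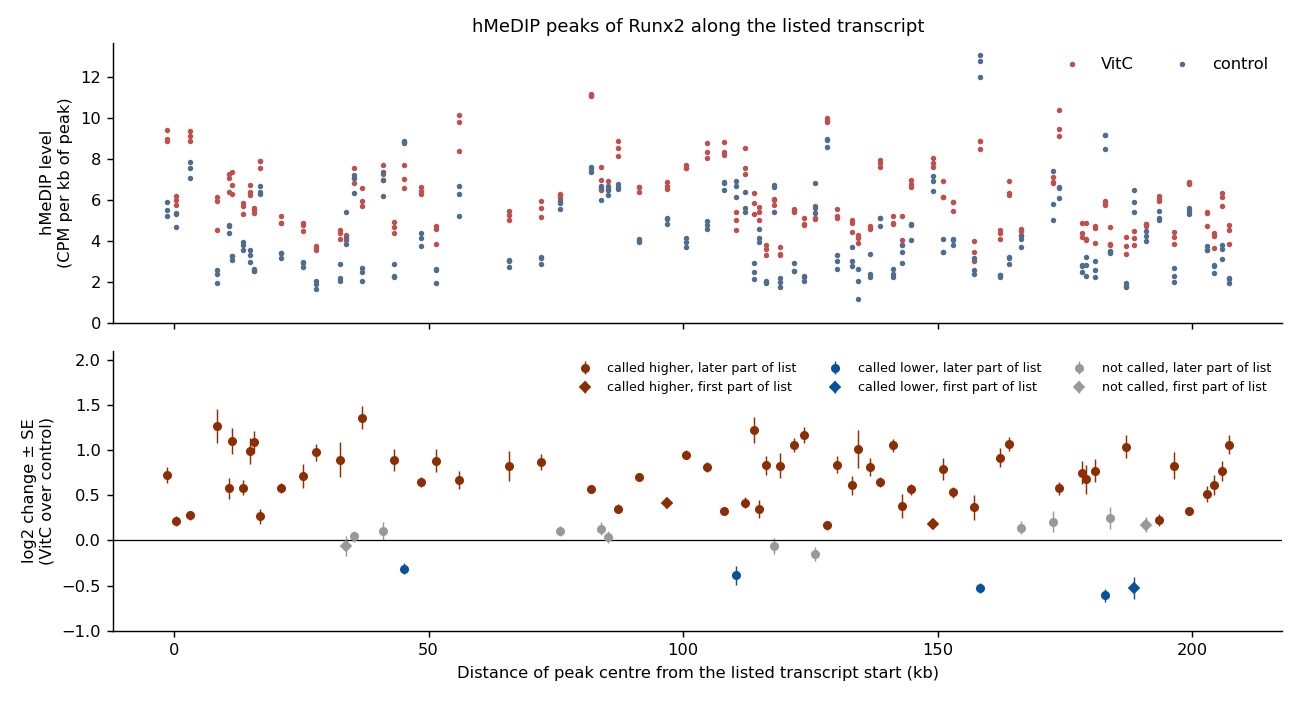
The 79 hMeDIP peaks of Runx2 by distance of the peak centre from the listed start in kb: above, level in CPM per kb of peak in each of 3 vitamin C (VitC) and 3 control libraries; below, the log2 change with its SE. Called increases lie along the whole transcript, and the 5 called decreases stand among them.

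The increases ran the length of the gene. In successive steps of 40 kb, 15 of 17, 6 of 9, 12 of 16, 15 of 17, 10 of 16 and 4 of 4 peaks were higher, with median log2 changes of 0.71, 0.67, 0.42, 0.61, 0.45 and 0.69. The peak before the start (chr9:18563093-18563821, centre at -1470) had 6.56, 6.49 and 6.86 CPM with vitamin C and 4.02, 4.29 and 3.82 CPM in controls. Its change was 0.72 ± 0.09 (edgeR adjusted p = 7.03e-10). The peak across the start (chr9:18564055-18566665, centre at 433) had 15.7, 16.2 and 15 CPM with vitamin C and 13.9, 12.3 and 14.0 CPM in controls. The difference there was small, 0.22 ± 0.06 (edgeR adjusted p = 7.64e-04), and was not called in the joint fit with input (edgeR adjusted p = 0.323).

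Deep in the gene body lies the increase of smallest p (chr9:18663719-18667250, centre at 100557), with 26.8, 27.2 and 26.8 CPM with vitamin C and 14.0, 13.2 and 14.6 CPM in controls. The lowest treated library lies far above the highest control, and the change was 0.95 ± 0.05 (edgeR adjusted p = 1.27e-22). Its neighbour at 96778, the larger of the Runx2 increases of the first pass, had 25.2 ± 0.715 CPM with vitamin C and 18.5 ± 0.675 CPM in controls (0.42 ± 0.05, edgeR adjusted p = 5.35e-11). Farther up, the peak at 81826 had 28.3, 28.2 and 28.1 CPM with vitamin C and 19.3, 18.6 and 19.0 CPM in controls (0.57 ± 0.05, edgeR adjusted p = 1.02e-15). The next peak toward the start, at 75845, averaged 19.0 ± 0.374 CPM with vitamin C and 17.9 ± 0.462 CPM in controls and did not pass (0.10 ± 0.05, edgeR adjusted p = 0.0566). Neighbouring peaks of the same transcript thus differed in their change. The largest change of the gene was at 36892 (1.36 ± 0.13), where vitamin C libraries averaged 4.76 ± 0.115 CPM and controls 1.90 ± 0.0713 CPM.

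The peak of smallest p among the decreases (chr9:18722622-18723930, centre at 158349) had 11.7, 11.6 and 11.1 CPM with vitamin C and 17.1, 16.8 and 15.7 CPM in controls. It fell by 0.52 ± 0.06 (edgeR adjusted p = 1.21e-11), and by all counted reads the change was -0.09 (adjusted p = 0.431). The other decreases are centred at 45226, 110406, 182829 and 188486, and their log2 changes lie between -0.31 and -0.61. In the joint fit with input, enrichment was higher at 52 and lower at 2 of the 79 peaks (those at 158349 and 182829). With scaling by all counted reads 74 peaks of Runx2 were higher and 0 lower, so the decreases are decreases relative to the typical peak.

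Notch1 carries 15 peaks, of which 11 were higher, 1 lower and 3 not called, with a median log2 change of 0.35. All 11 increases lie in the later pass, where Notch1 has 14 peaks with a median of 0.38. Of all peaks of that pass 53.3% were higher and 15% lower, with a median of 0.277. The Notch1 increases run from 0.31 to 0.91. The peak just before the start (chr3:3951174-3952590, centre at -857) had 8.26, 9.03 and 9.15 CPM with vitamin C and 6.13, 7.06 and 7.55 CPM in controls. The groups do not overlap, and the change was 0.35 ± 0.08 (edgeR adjusted p = 8.06e-05). The gene body increase of smallest p (chr3:3930036-3933540, centre at 19237) had 17.4, 16.6 and 16.7 CPM with vitamin C and 12.9, 13.1 and 13.5 CPM in controls (0.35 ± 0.05, edgeR adjusted p = 9.75e-08). The other called increases have centres between 7088 and 43743, the largest at 42861 (2.08 ± 0.288 CPM with vitamin C and 1.12 ± 0.131 CPM in controls; 0.91 ± 0.18, edgeR adjusted p = 8.71e-06). The peaks at 15121, 31822 and 36018 did not pass, with log2 changes of 0.22 ± 0.11, 0.01 ± 0.08 and 0.21 ± 0.13. In the joint fit with input, 5 of the 15 peaks were higher, the one before the start included (edgeR adjusted p = 0.0413), and 1 lower. The decrease (chr3:3941230-3942306, centre at 9257) had 7.76, 8.06 and 6.77 CPM with vitamin C and 11.5, 13.5 and 10.8 CPM in controls. This is the 1 Notch1 peak of the first pass of the list, and it fell by 0.65 ± 0.07 (edgeR adjusted p = 4.38e-11) with TMM scaling, while its change by all counted reads was -0.22 (adjusted p = 0.0581). Over all peaks of the first pass 88.2% were lower, with a median of -0.996.

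The Id genes are short and carry few peaks. Before Id1 (chr3:148213623-148214132, centre at -1663) hMeDIP was 2.70, 2.79 and 2.90 CPM with vitamin C and 1.24, 0.78 and 1.41 CPM in controls. Every treated library lies far above the highest control, and the change was 1.25 ± 0.16 (edgeR adjusted p = 1.40e-09). The peak farther out, at -2791, did not pass (0.21 ± 0.12, edgeR adjusted p = 0.108). Before Id2 (chr6:44364797-44365265, centre at -1116) hMeDIP was 1.47, 1.44 and 1.36 CPM with vitamin C and 2.97, 2.55 and 2.63 CPM in controls. This peak of the first pass fell by 0.93 ± 0.15 (edgeR adjusted p = 1.55e-07). At the start of Id2 (centre at 383) the change of 0.05 ± 0.13 did not pass, and in its gene body (centre at 5320) levels were 3.09, 3.58 and 3.09 CPM with vitamin C and 2.18, 2.77 and 2.84 CPM in controls. That change of 0.32 ± 0.13 (edgeR adjusted p = 0.0196) was not called with DESeq2 (0.115), without vitamin C library 2 (0.0647) or without control 1 (0.171). Before Id4 (chr17:16696441-16697220, centre at -1704) hMeDIP was 4.31, 4.005 and 3.99 CPM with vitamin C and 3.20, 3.16 and 3.30 CPM in controls (0.34 ± 0.11, edgeR adjusted p = 0.00418). In the joint fit with input, the peak at -1663 before Id1 was called (1.12, edgeR adjusted p = 8.67e-04) and none of the Id2 and Id4 peaks was, the decrease before Id2 narrowly (edgeR adjusted p = 0.0506). Thus Id1 and Id2, which both fell in RNA, had promoter-class peaks that changed in opposite directions, in different passes of the list. Over all peaks the median log2 change was -0.996 in the first pass, which holds this Id2 peak. In the later pass, which holds the Id1 peak, it was 0.277. The decrease before Id2 is thus near the typical change of its pass.

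Jun and Pax3 have 1 peak each, both in the first pass of the list. The Jun peak (chr5:114010036-114011514, centre at 3502) overlaps the 3′ end of the transcript by 326 bases, and had 9.54, 10.3 and 10.6 CPM with vitamin C and 10.3, 9.40 and 10.6 CPM in controls. It showed no detectable change (-0.00 ± 0.07, edgeR adjusted p = 0.987), in a pass where 88.2% of peaks were lower, and was higher by all counted reads (0.43 ± 0.11). The Pax3 peak (chr9:84010632-84010951, centre at 90381) had 1.11, 0.70 and 0.78 CPM with vitamin C and 1.96, 2.55 and 1.68 CPM in controls. It fell by 1.24 ± 0.19 (edgeR adjusted p = 7.61e-08), and is 1 of the 2 peaks that stayed lower by all counted reads, with that before Id2. The median log2 change of all peaks of its pass was -0.996.

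**Figure D4:**
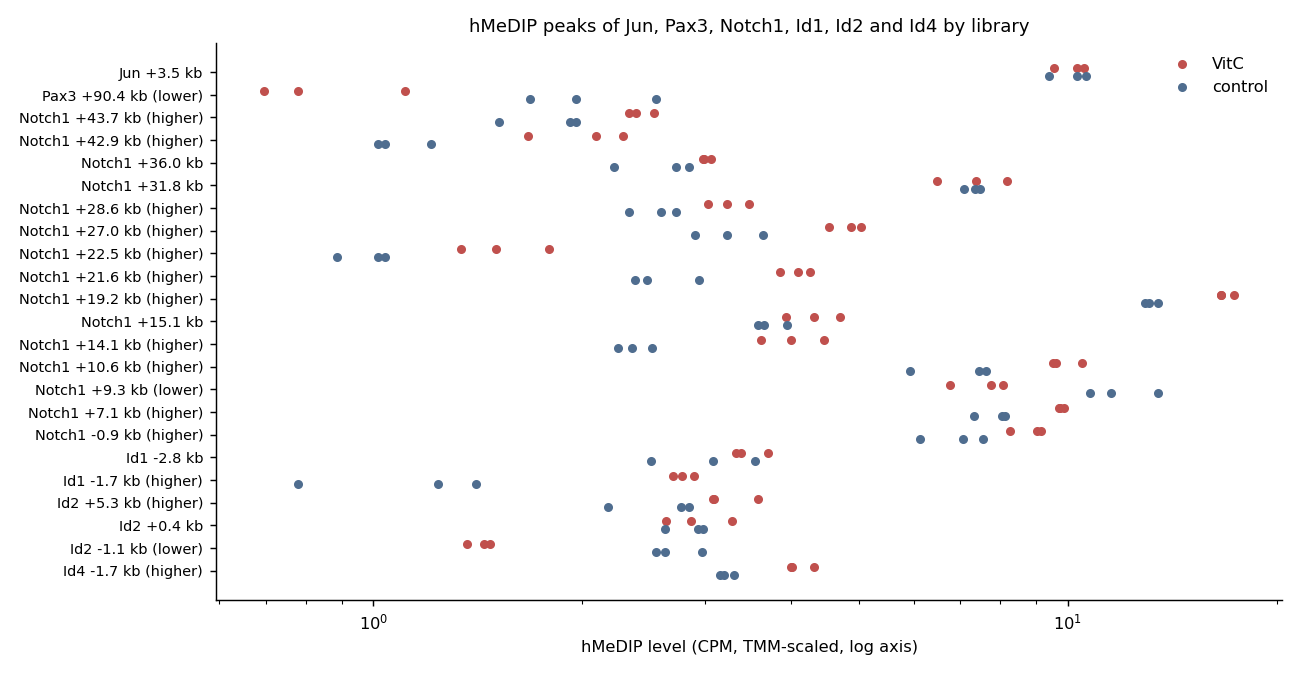
hMeDIP level in CPM (log axis) of each library at the 23 peaks of Notch1, Id1, Id2, Id4, Jun and Pax3, vitamin C (VitC) above control in each row, with the peak centre's distance from the listed start and the call. The largest separations are the increase 1.7 kb before Id1 and the decreases before Id2 and in Pax3.

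Summed over all peaks of a gene, hMeDIP was higher for Runx2 (0.49 ± 0.02), Notch1 (0.30 ± 0.03), Id1 (0.63 ± 0.09) and Id4 (0.39 ± 0.11), lower for Pax3 (-1.20 ± 0.19), and not called for Jun (0.04 ± 0.07) and Id2 (-0.06 ± 0.07), beside 39.8% of genes higher and 38.4% lower (78.3% called of 16140). Of the genes around them, 12 of 17 AP-1 partners and Jun kinases were higher and 0 lower in summed hMeDIP, 17 of 29 Notch genes higher and 4 lower, 10 of 19 BMP genes higher and 5 lower, and 6 of 8 E-proteins and partners higher and 0 lower. By all counted reads Jun and Id2 were called higher (0.43 and 0.33). The gene sums were not split by pass of the list. Most Runx2 peaks (74 of 79), most Notch1 peaks (14 of 15) and all Id1 and Id4 peaks are of the later pass. The median log2 change of all peaks of that pass was 0.277, beside 0.30 for the Notch1 sum and 0.39 for Id4. The lone Pax3 and Jun peaks are of the first pass, where that median was -0.996. The hMeDIP to input ratio over the summed peaks was 1.22 ± 0.00987 with vitamin C and 0.858 ± 0.0303 in controls for Runx2, and 1.06 ± 0.0307 and 0.886 ± 0.0209 in these groups for Notch1. For Id1 it was 0.869 ± 0.0969 with vitamin C and 0.616 ± 0.0573 in controls, for Jun 1.39 ± 0.139 and 1.07 ± 0.0697, and for Pax3 0.409 ± 0.0361 and 1.16 ± 0.302 (SD, n = 3 each). Each of these 5 had an exact two-sided permutation p = 0.1, the smallest that 3 against 3 can give (0.14 adjusted over 7 genes), with groups that do not overlap. In hMeDIP alone, 76.9% of all peaks had groups that do not overlap. For this ratio the share over all genes was not computed. Id2 (exact p = 0.3) and Id4 (exact p = 0.2) had groups that overlap. With libraries 1 and 3 summed, the comparison is 2 against 2, and the exact p was 0.333 for each of the 7 genes, the smallest that this size can give. The Jun peak was not called in the joint fit with input (edgeR adjusted p = 0.0747), and there input changed by -0.31 (not called) and hMeDIP by -0.00.

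**Figure D5:**
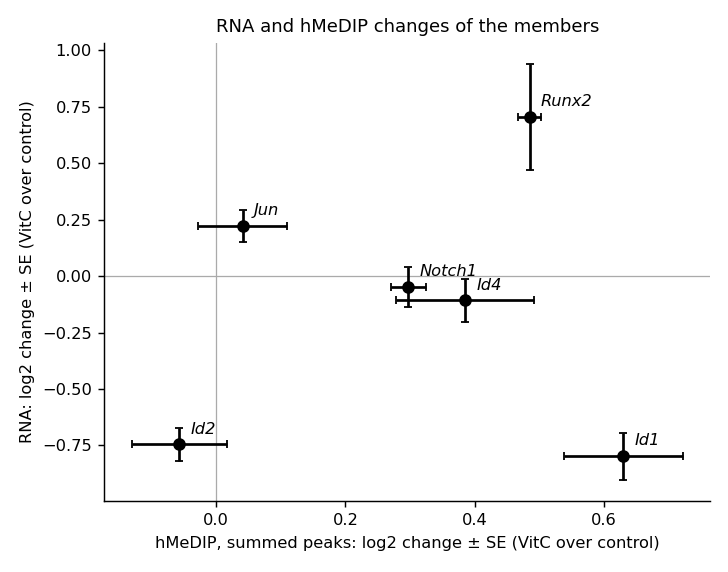
RNA log2 change against the log2 change of hMeDIP summed over a gene's peaks, each with its SE, for the 6 genes tested in both. Both measures are after TMM scaling. Runx2 was higher in both, with an RNA change of 0.32 without vitamin C library 1. Id1 was lower in RNA (-0.80) and higher in hMeDIP (0.63).

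Set side by side with TMM scaling, the 2 measures had no common direction over the genes. Runx2 was higher in both RNA (0.71, and 0.32 without vitamin C library 1) and hMeDIP (0.49). Its RNA call was lost when any control was left out and with DESeq2. Id1 was lower in RNA (-0.80) and higher in hMeDIP (0.63). Id2 was lower in RNA (-0.75) with a summed hMeDIP change of -0.06 that was not called. Notch1 and Id4 were higher in hMeDIP and did not pass in RNA, and Jun rose in RNA and was not called in hMeDIP. By all counted reads the summed hMeDIP change was positive for each of these genes, from 0.33 (Id2) to 1.02 (Id1).

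Among relatives of the same factor families 3 of 9 tested genes rose and 1 fell (median log2 change 0.41), and 5 rose and 1 fell without vitamin C library 1 (0.29). With all libraries 44.4% of this list were called, beside 40.1% of all tested genes. Runx1 rose to 55.1 ± 14.6 CPM with vitamin C, against 18.8 ± 0.303 CPM in controls (1.55 ± 0.16), and Sox8 fell to 85.1 ± 1.09 CPM, against 165 ± 6.25 CPM (-0.95 ± 0.05). Sox11 rose by 0.47 ± 0.12, and Sox5 by 0.57 ± 0.19 with all libraries and 0.29 without vitamin C library 1. Of 15 tested genes of the repair state 9 rose and 1 fell (66.7% called, median 0.44). The adhesion molecule L1cam (1.32 ± 0.06), the trophic factors Gdnf (1.46 ± 0.07) and Fgf5 (1.12 ± 0.06) and the filament protein Gfap (0.96 ± 0.05) rose, and the growth-associated Gap43 fell by 0.18 (called in 2 of the 6 fits that leave out a library). Of 16 tested myelination genes 8 rose and 2 fell (62.5% called, median 0.30). Zeb2, a repressor that counters negative regulators of myelination, rose by 1.60 ± 0.09, Prdm8 by 1.09 ± 0.07, the myelin protein gene Mbp by 0.77 ± 0.05 and Nfatc4 by 0.92 ± 0.09. Egr2 rose at a low level, with 6.76 ± 0.761 CPM with vitamin C and 2.09 ± 0.375 CPM in controls (1.69 ± 0.16). The 2 that fell are the promyelinating factor Pou3f1 (-0.81 ± 0.08) and the lipid synthesis regulator Srebf1 (-0.35 ± 0.08).

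Markers of Schwann cells summed to 11436 to 12176 CPM with vitamin C and 11904 to 12174 CPM in controls, overlapping ranges, but members moved both ways: S100b (-0.99 ± 0.06) and Erbb3 (-0.16 ± 0.05) fell, Cdh19 (0.67 ± 0.09) and Gas7 (0.30 ± 0.06) rose, and Sox10 and Ngfr did not pass. Markers of other cells moved with the treatment too. The skeletal muscle list summed to 512 to 532 CPM with vitamin C and 120.0 to 172 CPM in controls (4 of 4 tested rose, Pax7 at or near 0), the mural list to 194 to 221 and 78.3 to 81.3 CPM in these groups (3 of 4 tested rose, and 4 of its 8 genes, among them Rgs5 and Acta2, had at most 10 reads in every library). The fibroblast list summed to 9276 to 10787 CPM with vitamin C and 4516 to 4709 CPM in controls, nearly all of it the collagen gene Col1a1, the 1 of 4 tested that rose (1.16 ± 0.07). Gsn (-0.75 ± 0.07), Pdgfra (-1.38 ± 0.24) and Pi16 (-0.78 ± 0.15) fell, Dcn was at 0 and Thy1 at 0 or 1 read. Oligodendrocyte, macrophage and endothelial lists stayed under 5 CPM. Melanocyte and neuron lists ranged over 53.3 to 79.5 and 72.0 to 91.0 CPM with vitamin C and over 54.9 to 59.7 and 76.9 to 94.2 CPM in controls. Within these sums Mitf (0.89 ± 0.18) and Tubb3 (0.93 ± 0.12) rose, and Pmel (-1.84 ± 0.11) and Nefl (-1.18 ± 0.13) fell. The part of cell composition in the changes of Jun, Runx2, Id1 and Id2 was not tested.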

How the data were processed

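Read counts as the authors deposited them are whole numbers, per gene for RNA and per peak for hMeDIP and input, beside a list of peak positions, gene names and genomic classes. The 18 per-sample files held the same values as the whole-series tables. Tools named in the submitters' processing notes, without their roles, are BWA, CASAVA 1.4, HTSeq, STAR and Trim Galore. No source used here gives the genome build, annotation, peak caller, merging rule or strand setting. Rows that name no gene held 42.3% to 53.9% of RNA reads and were left out, as were hMeDIP reads outside peaks (56.1% to 69.2%) and input reads outside peaks (91.3% to 91.6%). The peak list pairs 17003 of the 32883 RNA identifiers with a symbol.

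Samples were grouped by their treatment label. Whole tables were fitted in R 4.3.3 with edgeR 4.0.16 (TMM, default filter on low counts, quasi-likelihood F test, Benjamini-Hochberg adjustment, threshold 0.05), with treatment as the term. A joint fit over hMeDIP and input tested the assay-by-treatment term. Hydroxymethylation per gene used counts summed over its peaks. Ratios of hMeDIP to input used an exact two-sided permutation test. DESeq2 1.42.0, other scalings, no filter, the replicate number as a block and leaving out each library were alternatives. A fit of 2 against 2 with hMeDIP replicates 1 and 3 summed and alternatives of the ratios were added after the data were seen. The labels do not say that replicate numbers pair samples. Scripts were tested on simulated data. Promoter sequences are from RefSeq (build GRCr8). Other tools were data.table (1.17.8), Python 3.11.15, pandas 2.3.3, numpy 2.4.6 and matplotlib 3.10.9.

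The genes, lists and tests were chosen with earlier results of these data known. All the members are named, with called promoter-class peaks, the called peak of smallest p per gene and direction, and up to 4 genes past the threshold per other list. The largest change among Runx2 peaks, the Runx2 decreases, uncalled Id1 and Id2 peaks, Fos, Atf3, Hes6, Gap43, Egr2, Pou3f1, Srebf1, the cell type markers, Tcf3, Tcf12, Rbpj and Supt3h fall outside this rule and were named after their values had been seen. The same holds for the Runx2 peaks at 96778, 81826 and 75845, the Notch1 peaks at 42861, 15121, 31822 and 36018, and the uncalled Jun peak. Jun and Tead1 were left out of the list of related factors, since other lists hold them. No molecular identifiers are mentioned, so counting error is a lower limit.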

Additional observations from a re-analysis of the deposited data

How the results depend on the processing

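The number of genes called in RNA was 5188 with all libraries, and 3494 to 5634 when each library was left out in turn. The 4 called members kept their direction throughout, but leaving out control 1, 2 or 3 left 2 called (a range of 2 to 4 over all left-out libraries). The change of Notch1, which was not called, ran from -0.148 to 0.0230 over left-out libraries. Its sign turned without vitamin C library 3 (0.0230) and without control 3 (0.004). Summed hMeDIP of Jun, also not called, turned to -0.00943 without control 2 (range -0.00943 to 0.0817 over left-out libraries). Summed hMeDIP of Id2 turned from a value not called to 0.33 with all counted reads as library size (adjusted p = 0.00196). The cause was not tested, apart from the shift of 0.43 in the median of all peaks that this scaling brings by construction. Counts of called peaks (153487 to 159902), member peaks (83 to 87), summed genes (11939 to 12334) and summed members (5) over left-out libraries stayed within 1.5 times their values with all libraries. DESeq2 called 78 member peaks and all counted reads 96, against 84. Whether replicate numbers pair the samples is not stated in the labels. Deviations of same-numbered RNA libraries from their group means correlated at 0.167, 0.051 and 0.010, and of hMeDIP libraries at -0.029, -0.200 and -0.110. Not every library correlated best with its own number. With 3 libraries per group these values cannot exclude pairing. With the replicate block, 5544 RNA genes, 158904 peaks, 4 members in RNA and 84 member peaks were called, and 63 peaks against 62 in the joint fit with input. Leaving out 1 library also ended the calls of Tcf4 and Sox5 in 3 of 6 fits and of Sox11 and Alpl in 1 of 6. Keeping all hMeDIP libraries apart was planned as an alternative in case some met the preset criterion for summing; none did, so it is the fit reported. Input gave 0 calls in each fit run. Depth limits Pax3 in RNA (at most 5 reads) and input, where a peak held as few as 9 reads.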
